A study of Homo sapiens with 6 samples.

Results

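The genes described here are 10 genes of glycolysis and the hypoxia response, VEGFA, ADM, EGLN3, ANKRD37, CA9, BNIP3, NDRG1, SLC2A1, PGK1 and LDHA. They were chosen by symbol among the 38606 human genes counted, and their values were read in all 49204 human nuclei kept from 6 single-nucleus RNA libraries of teratomas. Teratomas are tumours of mixed tissue that pluripotent cells form in a host. The study compared LNCPRESS1 DATG cells (written ΔATG by the submitters) with KO and WT cells, all of the H1 line, an established line of human embryonic stem cells. In every group the cells were injected with matrigel, a basement membrane gel, into the flank of NSG mice, which are immunodeficient, and the tumours were flash frozen. Each of the 3 groups, DATG, KO and WT, has 2 libraries. The labels do not describe the change that DATG stands for. Nor do they tell if libraries within a group are separate tumours or clones, so the p-values measure only the spread between these libraries.

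Cells sense low oxygen through the HIF transcription factors. Where oxygen is present, prolyl hydroxylases of the EGLN family mark the HIF alpha subunit, and the VHL protein then leads it to degradation. Where oxygen is short, the alpha subunit persists, pairs with ARNT and raises genes that bring in blood vessels, move glucose into glycolysis, remove acid and trim mitochondria. A growing teratoma has both well perfused and poorly perfused zones, and glycolysis also differs between cell types with ample oxygen. VEGFA and ADM encode secreted signals to blood vessels. EGLN3 encodes an oxygen-sensing prolyl hydroxylase that HIF itself raises, and ANKRD37 is a small ankyrin repeat gene known as a HIF target. CA9 encodes a carbonic anhydrase of the cell surface that handles acid, BNIP3 a mitochondrial protein of mitophagy, and NDRG1 a stress and differentiation protein. SLC2A1 encodes the glucose transporter GLUT1, PGK1 the glycolytic enzyme phosphoglycerate kinase, and LDHA a subunit of lactate dehydrogenase.

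Total depth ranged from 35785812 to 47574535 UMIs (unique molecular identifiers, which count RNA molecules) per library, over 6504 to 13489 barcodes. After filtering, the DATG libraries held 10829 and 5589 human nuclei, the KO libraries 9224 and 7376, and the WT libraries 5254 and 10932. The median nucleus had between 2521 and 3931 UMIs, and pairs of libraries shared 12 to 51 cell barcodes. LNCPRESS1 itself was close to undetected, with 1 and 3 UMIs in the DATG libraries, 2 and 0 in KO and 7 and 2 in WT, so its level gives no check of the labels. DATG replicate 2 stood apart: 3649 of its barcodes mixed human and mouse RNA, against 513 to 1095 in the other libraries, and across genes its log levels correlated with DATG replicate 1 at r = 0.931, against 0.987 between the KO and 0.983 between the WT libraries. Class names ending in "-like" were rebuilt here from marker genes, and clusters without such a name are called by genes from among their leading ones. The HSPA1A/HSPH1 cluster passed for erythroid markers but was left unnamed, and globin genes ranked above those it is called by.

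HIF binds DNA at a core of ACGTG or GCGTG. RefSeq promoters, from 250 bases before to 50 bases after the annotated start on GRCh38.p14, were matched for 8 of the 10 genes, in 9 windows, since LDHA has a window at each of 2 annotated starts. ACGTG, searched on both strands, was found in 5 of these 9 windows (ANKRD37, CA9, BNIP3, PGK1 and the first of LDHA), and in 7518 of all 35116 promoters in the table (21.4%). The second LDHA window (chr11:18396101-18396400, plus strand) holds none. ACGTG or GCGTG was found in 8 of the 9, and in 48.4% of all promoters. The palindrome CACGTG holds ACGTG on both strands and was counted on each. ACGTG was found in 20 of the 32 windows of other HIF targets, 16 of the 44 of other glycolysis genes, and 3 of the 9 of comparison genes such as ACTB. Here 4 of the 5 windows with ACGTG are shown, read 5′ to 3′ on the gene's strand, because they range from a single match to several; capitals mark ACGTG and its reverse complement CACGT. CA9 (chr9:35673678-35673977, plus strand) holds 1 match, 18 bases before its start. ANKRD37 (chr4:185396591-185396890, plus strand) and PGK1 (chrX:78103998-78104297, plus strand) hold 3 matches each, and the first window of LDHA (chr11:18394313-18394612, plus strand) holds 5. A match describes the letters of the window and does not show binding.
CA9: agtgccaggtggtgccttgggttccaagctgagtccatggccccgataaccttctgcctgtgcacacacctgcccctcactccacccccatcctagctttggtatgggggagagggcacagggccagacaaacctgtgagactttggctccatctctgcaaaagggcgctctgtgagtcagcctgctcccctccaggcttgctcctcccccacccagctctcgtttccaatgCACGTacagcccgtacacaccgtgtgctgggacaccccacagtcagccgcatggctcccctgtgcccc
ANKRD37: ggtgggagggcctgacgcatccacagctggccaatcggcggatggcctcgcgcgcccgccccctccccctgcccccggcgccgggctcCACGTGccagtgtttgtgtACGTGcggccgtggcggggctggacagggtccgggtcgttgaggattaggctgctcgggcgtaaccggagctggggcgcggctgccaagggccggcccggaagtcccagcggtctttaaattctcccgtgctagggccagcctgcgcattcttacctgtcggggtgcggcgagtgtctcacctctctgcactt
PGK1: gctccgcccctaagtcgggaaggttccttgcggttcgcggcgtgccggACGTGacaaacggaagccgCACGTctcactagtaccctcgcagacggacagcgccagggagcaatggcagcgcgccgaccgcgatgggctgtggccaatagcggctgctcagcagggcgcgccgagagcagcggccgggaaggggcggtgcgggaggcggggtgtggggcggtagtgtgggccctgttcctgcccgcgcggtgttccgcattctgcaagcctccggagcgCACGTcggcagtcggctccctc
LDHA: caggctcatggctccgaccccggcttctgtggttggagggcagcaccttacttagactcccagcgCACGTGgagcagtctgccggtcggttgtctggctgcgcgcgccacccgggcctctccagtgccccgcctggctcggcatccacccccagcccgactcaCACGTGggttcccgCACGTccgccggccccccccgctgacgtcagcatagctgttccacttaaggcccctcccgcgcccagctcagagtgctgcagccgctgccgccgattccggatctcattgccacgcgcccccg

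The first question was how the genes differed between the 3 groups over all human nuclei. Every value below is in CPM, a gene's UMIs scaled to a common total of human UMIs per library, with replicate 1 before replicate 2. No member passed the test in any comparison, and libraries of 1 group differed widely from each other. WT replicate 2 was above WT replicate 1 for 10 of 10 genes, by 1.42-fold for NDRG1 up to 2.66-fold for ANKRD37. The DATG libraries differed by up to 4.90-fold (VEGFA) and the KO libraries by up to 3.53-fold (NDRG1). Of the 10 genes, 3 were highest in DATG replicate 2 and 7 in WT replicate 2. With the TMM scaling that the test uses, which adjusts for differences in RNA makeup, 6 were highest in DATG replicate 2 and 4 in WT replicate 2. Under either scaling, 4 were lowest in DATG replicate 1 and 4 in KO replicate 1. Summed over a library, a gene's level mixes its level in each cell type with the share of that cell type, and the 2 cannot be told apart there.

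**Figure D1:**
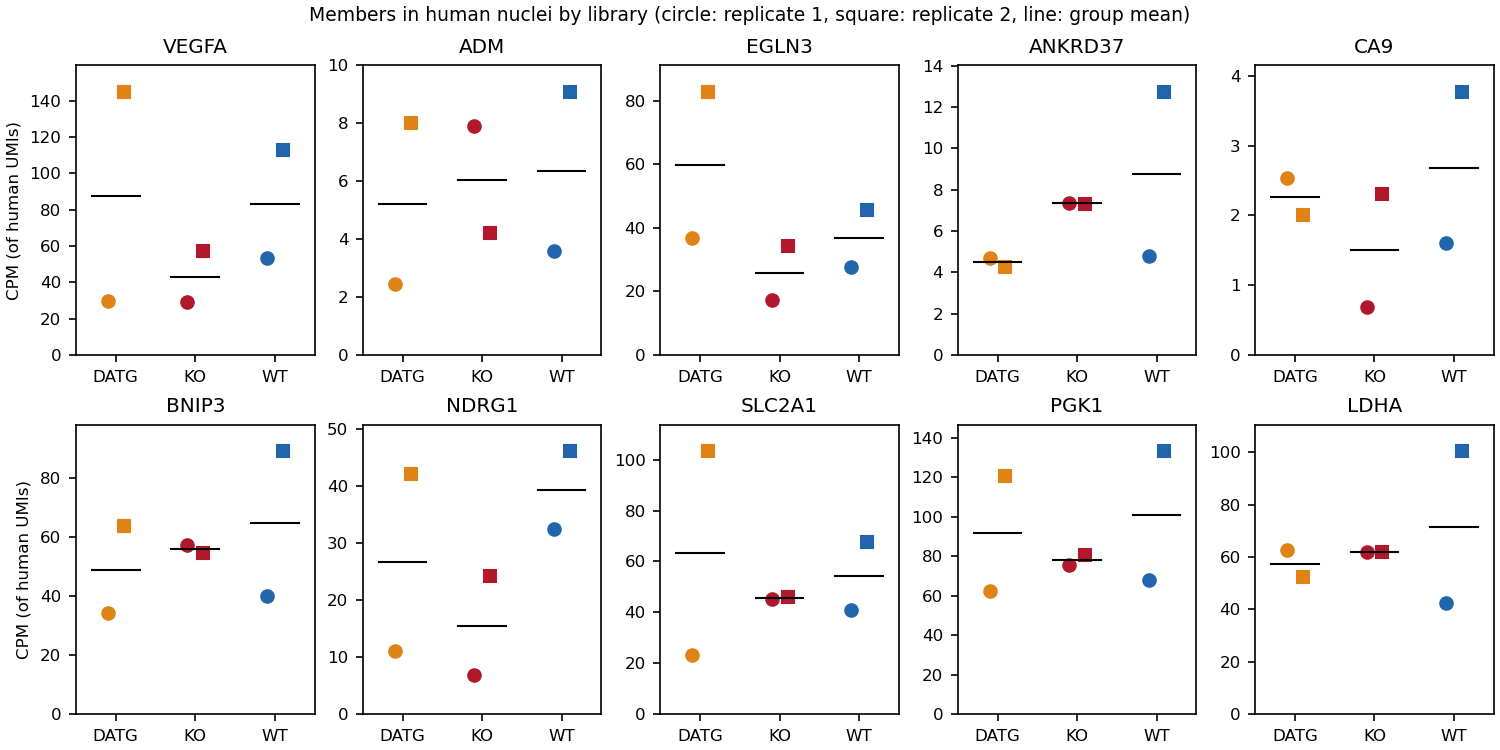
Level of each of the 10 genes (CPM of human UMIs, linear axis from 0) in the DATG, KO and WT libraries. Circles are replicate 1, squares replicate 2 and lines group means; VEGFA spans 29.6 to 145 CPM within DATG alone.

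Of the vessel signals, VEGFA (chr6:43770184-43786487, plus strand) had 29.6 and 145 CPM in DATG, 28.98 and 57.03 CPM in KO and 53.4 and 113 CPM in WT. DATG held both one of the lowest libraries and the highest, so it overlapped with KO and with WT, and KO overlapped with WT. ADM (chr11:10304680-10307397, plus strand), which encodes adrenomedullin, a peptide that relaxes vessels and tightens their lining, had 2.45 and 7.999 CPM in DATG, 7.91 and 4.198 CPM in KO and 3.58 and 9.09 CPM in WT. Its 3 groups covered the same range.

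Of the oxygen-sensing and HIF feedback genes, EGLN3 (chr14:33924231-34462774, minus strand) had 36.9 and 82.9 CPM in DATG, 17.4 and 34.2 CPM in KO and 27.7 and 45.7 CPM in WT. Both DATG libraries were above both KO libraries, and DATG overlapped with WT. ANKRD37 (chr4:185396021-185400628, plus strand) had 4.70 and 4.27 CPM in DATG, 7.38 and 7.31 CPM in KO and 4.79 and 12.8 CPM in WT. Both DATG libraries lay under both KO libraries, and DATG replicate 1 and WT replicate 1 were close. With TMM scaling WT replicate 1 was the lowest of the 6, at 4.53 CPM, against 4.71 and 4.86 CPM in DATG.

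CA9 (chr9:35673856-35681159, plus strand) was rare, with 2.53 and 2.0 CPM in DATG, 0.688 and 2.31 CPM in KO and 1.60 and 3.77 CPM in WT, from 22 UMIs in KO replicate 1 to 132 in WT replicate 2. BNIP3 (chr10:131966455-131982013, minus strand) had 34.1 and 63.6 CPM in DATG, 57.1 and 54.7 CPM in KO and 40.0 and 89.0 CPM in WT. In both genes the KO and DATG libraries overlapped with the WT libraries. NDRG1 had 11.1 and 42.1 CPM in DATG, 6.85 and 24.2 CPM in KO and 32.5 and 46.1 CPM in WT. Both KO libraries lay under both WT libraries, DATG overlapped with each, and the highest library was 6.74-fold above the lowest.

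Of the glucose route, SLC2A1 (chr1:42925375-42959176, minus strand) had 23.4 and 103 CPM in DATG, 45.4 and 46.2 CPM in KO and 40.9 and 67.5 CPM in WT. Its KO libraries were nearly equal and lay between the DATG libraries. PGK1 (chrX:77910739-78129296, plus strand) had 62.6 and 121 CPM in DATG, 75.7 and 80.9 CPM in KO and 68.1 and 134 CPM in WT. LDHA (chr11:18394388-18408425, plus strand) had 62.6 and 52.4 CPM in DATG, 62.0 and 62.1 CPM in KO and 42.3 and 101 CPM in WT. For both enzymes the KO libraries were nearly equal and lay between the WT libraries. Processed pseudogenes of PGK1 and LDHA exist in the genome, and how the authors' counting shared reads with them is not stated, so these levels carry that uncertainty.

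In the test of DATG against WT, 0 of the 10 members passed, against a background of 0% of 26552 genes (edgeR's quasi-likelihood test, Benjamini-Hochberg adjusted p under 0.05 over all genes tested). Of all genes 791 had an unadjusted p under 0.05, and none of the 10 did. DESeq2 called 90 of 35670 genes (0.252%) and again none of the 10. The fitted log2 fold changes were positive for 4 members and negative for 6, with a median of -0.10, against 0.03 over all genes, and the median ran from -0.26 to 0.02 over 8 other settings with all libraries kept and from -0.86 to 0.65 with 1 library left out. ANKRD37 had the lowest, -0.83 (SE 0.52, adjusted p = 0.9998 by edgeR), and EGLN3 the highest, 0.89 (SE 0.58, adjusted p = 0.9998 by edgeR). SLC2A1 had 0.43 (SE 0.70), which was -1.16 without DATG replicate 2 and 1.14 without DATG replicate 1. The value of ANKRD37 was 0.08 without WT replicate 2.

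In the test of KO against WT, 0 of 10 members passed, against a background of 0% of 26552 genes, of which 1229 had an unadjusted p under 0.05. DESeq2 called 151 genes (0.423%), and a fit of the 4 KO and WT libraries alone called 485 of 25970 genes (1.87%). Neither called a member. All 10 fitted values were negative, with a median log2 fold change of -0.29 against 0.01 over all genes, and they ran from -1.28 for NDRG1 (SE 0.84, adjusted p = 0.9995 by edgeR) to -0.07 for ADM. VEGFA had -0.91 (SE 0.83) and CA9 -0.79 (SE 0.75). The median over members was 0.23 without WT replicate 2 and -0.77 without WT replicate 1. The shared sign was also lost without KO replicate 2, when the highest member had 0.27, and with the replicate number as a block, when it had 0.23. NDRG1 was highest in gut epithelium-like nuclei, which made up 0.720% and 13.9% of nuclei in DATG, 0.173% and 0.691% in KO and 5.77% and 7.52% in WT. Both KO libraries and DATG replicate 1, which had the lowest shares, were also the lowest for NDRG1. The order was not the same throughout, since KO replicate 2 had 24.2 CPM and DATG replicate 1 had 11.1 CPM at about the same share. The part of these shares in the NDRG1 values was not tested. Without gut epithelium-like nuclei, NDRG1 had 9.48 and 26.9 CPM in DATG, 6.76 and 22.8 CPM in KO and 23.3 and 30.4 CPM in WT, and the log2 ratio of the group means of KO over WT was -0.86, against -1.34 with them. Both KO libraries still lay under both WT libraries.

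In the test of DATG against KO, 0 of 10 members passed, against a background of 0% of 26552 genes, of which 1615 had an unadjusted p under 0.05. DESeq2 called 76 genes (0.213%) and no member. Fitted values were positive for 7 members and negative for 3, with a median log2 fold change of 0.52 against 0.03 over all genes. EGLN3 had the highest, 1.36 (SE 0.58, adjusted p = 0.676 by edgeR), then VEGFA with 1.19 (SE 0.84, adjusted p = 0.681 by edgeR). ANKRD37 had the lowest, -0.59 (SE 0.52, adjusted p = 0.711 by edgeR). EGLN3 and VEGFA were both high in the CDKN2B/COMP cluster, which made up 4.28% and 27.0% of nuclei in DATG and 0.466% and 7.08% in KO. General epithelium-like nuclei, also high in EGLN3, made up 0.0277% and 11.0% in DATG and 0.0434% and 0.176% in KO. The part of these shares in the fitted values was not tested. The fitted values depended on which DATG library was kept. Without DATG replicate 2, VEGFA had -0.51 and EGLN3 0.54, and no member passed. Without DATG replicate 1, so with the library that stood apart as the only DATG sample, 2 of 10 members passed, SLC2A1 (1.38, adjusted p = 0.0139 by edgeR) and EGLN3 (1.86, adjusted p = 0.0393 by edgeR), where 23.9% of 27650 genes did. Fits of the 4 DATG and KO or the 4 DATG and WT libraries alone called 0% of genes. The comparisons share libraries, so their values are not independent of each other.

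The other genes of the pathway were read from 4 lists, 21 further glycolysis enzymes and transporters, 25 further HIF targets, 9 HIF subunits and sensing genes, and 12 ligands and receptors of the VEGF and adrenomedullin systems. All 67 were tested and 0 passed in each comparison, where edgeR called 0% of genes. Among HIF targets the fitted values of DATG over KO were positive for 21 and negative for 4, with a median log2 fold change of 0.38. Without DATG replicate 2 they were positive for 10 and negative for 15, with a median of -0.10. In the fit of all libraries LOX, which cross-links collagen, had 1.75 in DATG over KO (SE 0.84) and TMEM45A 1.27 (SE 0.56), neither passing, and TMEM45A had 0.36 without DATG replicate 2. In KO over WT 22 of the 25 HIF targets were negative, with a median of -0.28, but 9 were without WT replicate 2, with a median of 0.09. PPP1R3C, a glycogen regulator, had -0.95 in KO over WT (SE 0.48). Among glycolysis genes TPI1, triosephosphate isomerase, had 0.70 in DATG over KO (SE 0.26, adjusted p = 0.676 by edgeR) and 0.71 in DATG over WT (SE 0.26, adjusted p = 0.9998 by edgeR). Of the HIF subunits, EPAS1, which encodes HIF-2 alpha, had 2.80 in DATG over KO (SE 1.00), or 0.56 without DATG replicate 2, and -1.84 in KO over WT (SE 0.97). Of the ligands, PGF, placental growth factor, had -1.06 in KO over WT (SE 0.30, adjusted p = 0.9995 by edgeR). Of the receptors, KDR, the main VEGFA receptor of endothelium, had 1.87 in DATG over KO (SE 0.96), which was -0.57 without DATG replicate 2. With TMM scaling KDR had 3.92 and 38.9 CPM in DATG and 4.33 and 7.37 CPM in KO. EPAS1 and KDR are genes of endothelium, and the summed level of 12 endothelial markers, KDR among them, was 168 and 385 CPM in DATG, 109 and 196 CPM in KO and 251 and 335 CPM in WT. The part of endothelial nuclei in these values was not tested.

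The next question was in which cells the genes were high. Classes and clusters were made without the members, the glycolysis list and the HIF target list, so that their levels by class are not set by the clustering. Levels are means of CPM over libraries with at least 50 nuclei of the class. Among the 20 classes with 3 or more libraries, mitotic-like nuclei were the lowest for ADM, ANKRD37, BNIP3, SLC2A1 and PGK1, and the SLC6A5/LAMP5 cluster for EGLN3 and NDRG1. Orders are given among these 20, and a class with 2 libraries is named beside them where it was high.

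**Figure D2:**
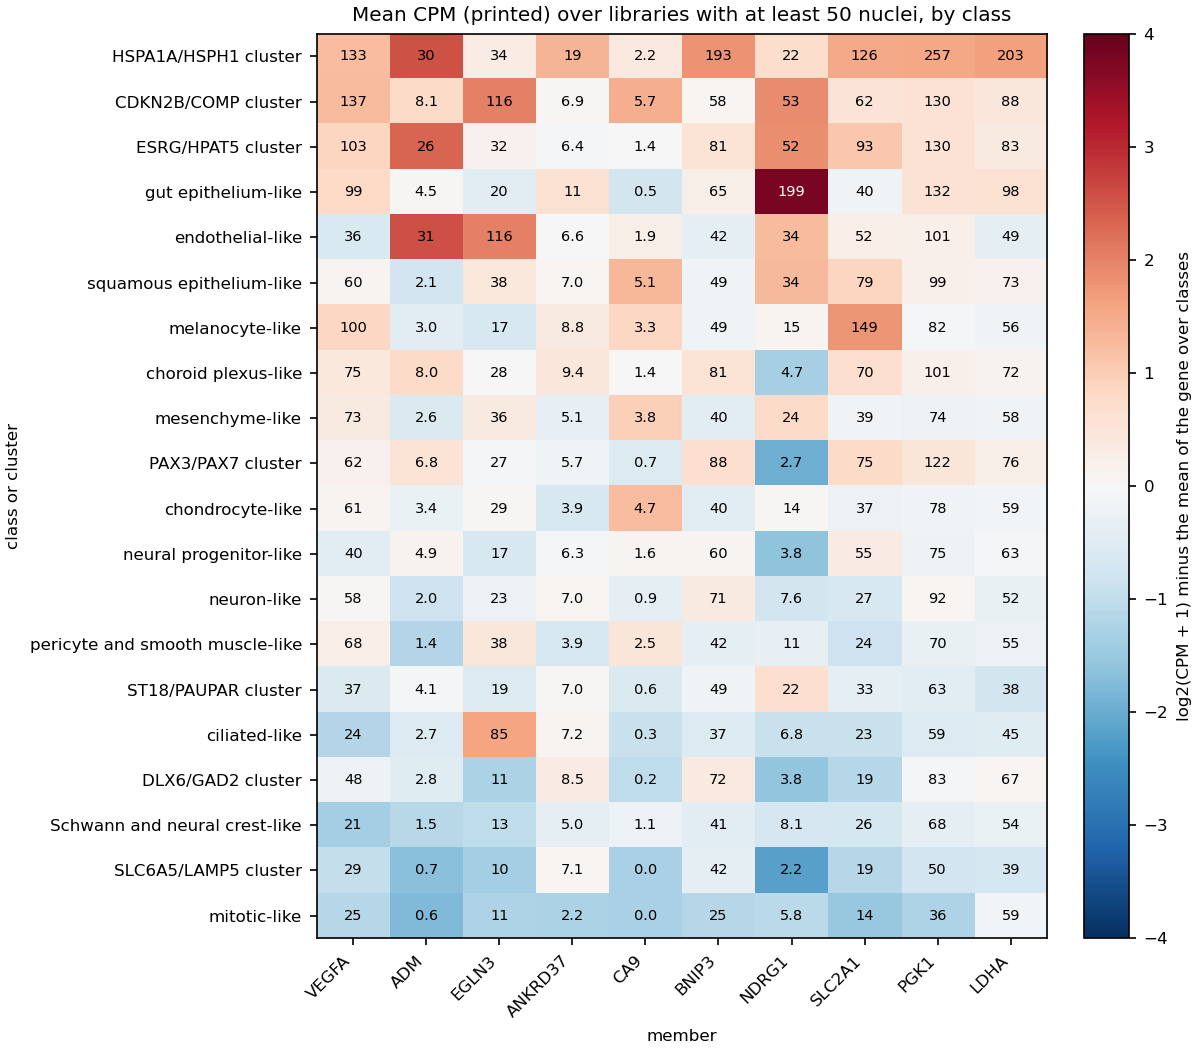
Mean CPM of each gene (printed) in 20 classes and clusters with at least 50 nuclei in 3 or more libraries; colour gives log2(CPM + 1) minus the gene's mean over classes. NDRG1 in gut epithelium-like nuclei (199 CPM) and BNIP3, PGK1 and LDHA in the HSPA1A/HSPH1 cluster stand out from the rest of their columns.

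VEGFA was highest in the CDKN2B/COMP cluster, at 137 ± 23.3 CPM (SD, n = 5 libraries), and in the HSPA1A/HSPH1 cluster, at 133 ± 73.1 CPM (SD, n = 6), and lowest in Schwann and neural crest-like nuclei, at 21.0 ± 4.41 CPM (SD, n = 5). No 2 neighbours in its order of 20 classes differed by more than the larger SD of the pair. ADM was highest in endothelial-like nuclei, at 31.1 ± 12.9 CPM (SD, n = 3), followed by the HSPA1A/HSPH1 cluster (30.4 ± 21.8 CPM, n = 6) and the ESRG/HPAT5 cluster (26.2 ± 16.7 CPM, n = 4). These 3 were set off from the next, the CDKN2B/COMP cluster with 8.10 ± 4.82 CPM (SD, n = 5), by more than the larger SD. ADM counts were small, with 69 UMIs in all endothelial-like nuclei.

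EGLN3 was highest in the CDKN2B/COMP cluster (116 ± 31.2 CPM, n = 5) and in endothelial-like nuclei (116 ± 32.4 CPM, n = 3), then in ciliated-like nuclei (84.9 ± 41.6 CPM, n = 5). A gap larger than the SD separated these from pericyte and smooth muscle-like nuclei at 38.2 ± 16.4 CPM (SD, n = 6). In general epithelium-like nuclei, present at 50 or more only in DATG replicate 2 and WT replicate 2, EGLN3 had 159 and 160 CPM, the highest of any class in these libraries. ANKRD37 was highest in the HSPA1A/HSPH1 cluster (18.8 ± 10.6 CPM, n = 6) and CA9 in the CDKN2B/COMP cluster (5.66 ± 2.58 CPM, n = 5), with no neighbours in either order beyond their spread.

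BNIP3 had 193 ± 87.0 CPM (SD, n = 6) in the HSPA1A/HSPH1 cluster and 87.8 ± 39.1 CPM (SD, n = 6) in the next, the PAX3/PAX7 cluster, a gap beyond the spread. NDRG1 had 199 ± 43.7 CPM (SD, n = 5) in gut epithelium-like nuclei, where it ran from 143 CPM in DATG replicate 2 to 254 CPM in KO replicate 2. In the next class, the CDKN2B/COMP cluster, NDRG1 had 52.5 ± 19.3 CPM (SD, n = 5), and in the PAX3/PAX7 cluster 2.70 ± 2.99 CPM (SD, n = 6). This is the widest separation of a top class in the set, and all 5 libraries showed it.

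SLC2A1 was highest in general epithelium-like nuclei, with 334 CPM in DATG replicate 2 and 302 CPM in WT replicate 2. Among classes with 3 or more libraries it led in melanocyte-like nuclei (149 ± 43.9 CPM, n = 4), followed by the HSPA1A/HSPH1 cluster (126 ± 42.6 CPM, n = 6), within the spread. PGK1 had 257 ± 98.1 CPM and LDHA 203 ± 60.7 CPM in the HSPA1A/HSPH1 cluster (SD, n = 6 each). Among the 20 classes gut epithelium-like nuclei came next, with 132 ± 28.9 CPM of PGK1 and 97.9 ± 70.3 CPM of LDHA (SD, n = 5 each), a gap beyond the larger SD for both genes. Blood and immune-like nuclei, which reached 50 nuclei in 2 libraries, were higher than these, with a mean of 181 CPM of PGK1 and 118 CPM of LDHA, and for PGK1 lay within the SD of the HSPA1A/HSPH1 cluster.

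The HSPA1A/HSPH1 cluster, which led for 4 of the genes, was the shallowest, with a median of 1077 UMIs in 3513 nuclei. Globin genes ranked first among its leading genes, ahead of the heat shock genes it is called by. The summed level of 8 erythroid markers in it was 8457 and 1391 CPM in DATG, 0 and 6.98 CPM in KO and 14.9 and 41.5 CPM in WT. The cluster made up 3.61% and 4.42% of nuclei in DATG, 6.22% and 5.83% in KO and 11.8% and 11.5% in WT. RNA set free in the suspension was estimated from human UMIs inside mouse nuclei, without separating other sources of such UMIs. There were 374718 of these UMIs. DATG replicate 2 gave 38.4% of these UMIs but 11.5% of the UMIs of human nuclei, so the human nuclei were weighted by library in the same way. Of the 10 genes 8 were then higher in this free RNA than in human nuclei. The share of all genes higher there was not measured, so this count is not read as a trait of these genes. PGK1 had 230 CPM against 98.1, LDHA 200 CPM against 59.8 and SLC2A1 176 CPM against 67.99, each higher in 6 of 6 libraries. ANKRD37 was higher in only 3 of 6 libraries and CA9 in 1 of 6. VEGFA had 141 CPM against 91.2, higher in 5 of 6 libraries. EGLN3, with 40.0 CPM against 51.9, and NDRG1, with 21.3 CPM against 31.7, were lower in free RNA. ADM, EGLN3, ANKRD37, CA9 and NDRG1 rest on 3 to 15 UMIs there. The part of free RNA in the levels of the shallow cluster was not tested. At 1 common depth of 1500 UMIs, the share of nuclei with a human UMI was higher in human than in mouse nuclei for each gene, for example 8.68% of 40173 human nuclei against 1.61% of 1368 mouse nuclei for VEGFA, 4.66% against 0.292% for EGLN3 and 11.5% against 2.49% for PGK1. CA9 was at 0.326% against 0.219% (exact 95% interval 0.0452% to 0.640% in mouse nuclei, covering counting error only). Its 2 shares were thus not told apart, and the mouse share rests on 3 nuclei. These shares were not weighted by library, and DATG replicate 2 gave 543 of the 1368 mouse nuclei.

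Within single classes the group comparison was repeated for the 4 named classes with the most nuclei in their smallest library, mesenchyme-like, neuron-like, choroid plexus-like and chondrocyte-like nuclei. No member passed in any of them. Calls over all genes were 0% in the first 3 classes for each comparison, and in chondrocyte-like nuclei 0% for KO against WT and 0.00745%, 1 of 13426 genes, for DATG against WT and for DATG against KO. In mesenchyme-like nuclei VEGFA had 23.5 and 119 CPM in DATG, 17.3 and 60.1 CPM in KO and 69.2 and 148 CPM in WT. In neuron-like nuclei it had 20.5 and 188 CPM in DATG, 17.4 and 40.7 CPM in KO and 31.3 and 51.5 CPM in WT. In choroid plexus-like nuclei it had 38.2 and 194 CPM in DATG, 38.3 and 58.4 CPM in KO and 41.1 and 81.7 CPM in WT. The height of VEGFA in DATG replicate 2 was thus present inside neuron-like and choroid plexus-like nuclei, while DATG replicate 1 lay within or just under the KO values in all 3 classes.

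EGLN3 in mesenchyme-like nuclei had 24.95 and 58.99 CPM in DATG, 8.66 and 27.5 CPM in KO and 42.6 and 52.1 CPM in WT. Both KO libraries lay under both WT libraries there, with a log2 fold change of -1.35 (SE 0.68, adjusted p = 0.795 by edgeR), which did not pass. Mesenchyme-like nuclei pool clusters whose shares differed between groups. The cluster led by C7 held 198 and 185 nuclei in DATG, 15 and 88 in KO and 785 and 2504 in WT. One with TBX15 among its leading genes held 2370 and 53 in DATG, 946 and 466 in KO and 320 and 162 in WT. The part of this mix in the EGLN3 and VEGFA values of the class was not tested. SLC2A1 in chondrocyte-like nuclei had 14.2 and 41.4 CPM in DATG, 26.4 and 28.5 CPM in KO and 51.9 and 59.1 CPM in WT, all 4 DATG and KO values under both WT values. Its log2 fold changes there were -1.34 for DATG over WT (SE 0.50, adjusted p = 0.9999 by edgeR) and -0.98 for KO over WT (SE 0.43, adjusted p = 0.9996 by edgeR). The chondrocyte-like name is weak in some libraries, with only 1 of its 11 markers raised in WT replicate 1 and 3 in DATG replicate 2. Of the 12 mesenchyme markers, 5 were raised in each DATG library, against 12 and 10 in KO and 12 and 11 in WT. Without DATG replicate 1, VEGFA in choroid plexus-like nuclei passed for DATG over KO (2.17, adjusted p = 0.0285 by edgeR), where 3.3% of 14520 genes did. DATG replicate 2 is then the only DATG library, and it is assumed to vary like the KO and WT libraries. Without DATG replicate 2 instead, no member passed there, the median over 8 members was -0.80 and the lowest adjusted p was 0.0579 by edgeR.

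The same genes were read in the mouse nuclei of the host, 87 to 547 per library, where 8 of the 10 orthologues had enough counts to be tested. None passed, and over all 8930 mouse genes 0% passed for KO against WT, 0.0336% for DATG against WT and 0% for DATG against KO. Slc2a1 had 5.64 and 14.9 CPM in DATG, 41.7 and 74.6 CPM in KO and 46.9 and 21.4 CPM in WT. Both DATG libraries were the lowest of the 6, with a log2 fold change of -2.24 over KO (SE 0.55, adjusted p = 0.208 by edgeR), although the value of DATG replicate 1 is 2 UMIs. The summed level of 8 mouse endothelial markers was also lowest in both DATG libraries, at 401 and 201 CPM, against 510 and 685 CPM in KO and 545 and 691 CPM in WT. The part of host endothelium in the Slc2a1 values was not tested. In human nuclei SLC2A1 was at its lowest of the 6 libraries in DATG replicate 1 and at its highest in DATG replicate 2. Ndrg1 had 76.2 and 97.4 CPM in DATG, 123 and 210 CPM in KO and 198 and 156 CPM in WT, again lowest in both DATG libraries, and its log2 fold change of DATG over WT was -0.94 (SE 0.36, adjusted p = 0.880 by edgeR).

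The last question was whether the genes appear together in the same nuclei. Each nucleus was thinned to 1500 UMIs, which left out 2064 and 1346 shallower nuclei in DATG, 1557 and 804 in KO and 904 and 2356 in WT, and kept 1160 of the HSPA1A/HSPH1 cluster. Nuclei with both genes of a pair were counted against the number given by the 2 genes' shares within each class of a library. Pairs of members were found together in 9249 nuclei summed over pairs, against 5821 given by their shares, a ratio of 1.59. The ratio was 1.64 and 1.37 in DATG, 1.82 and 1.65 in KO and 1.82 and 1.57 in WT. For 10 comparison genes of high and broad expression the ratio was 1.07, between 1.05 and 1.10 over libraries, and for a member with a comparison gene it was also 1.07. All 45 pairs of members were above 1, 26 of them in all 6 libraries. These ratios are a description with no test, since nuclei of a library share their source.

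**Figure D3:**
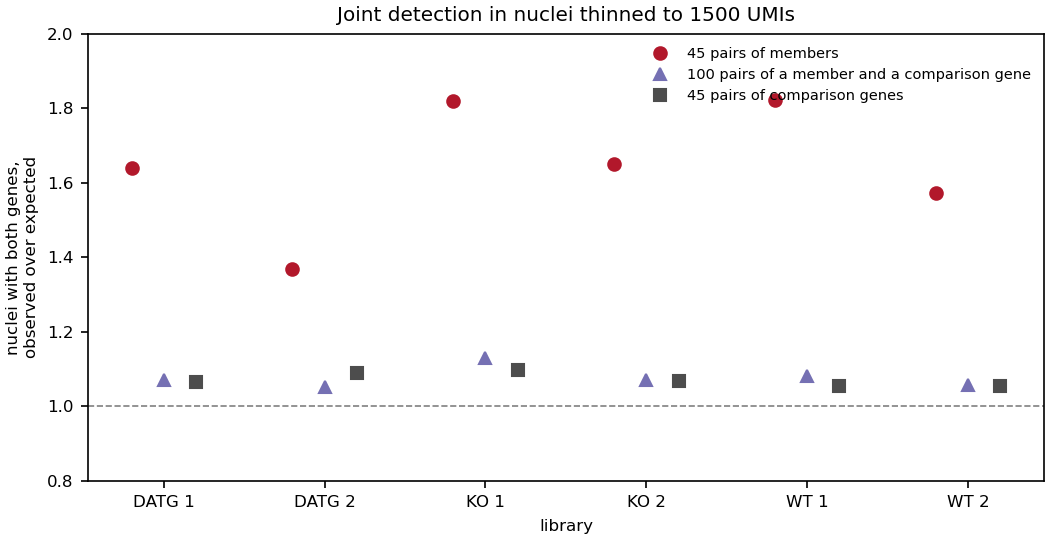
Nuclei in which both genes of a pair were detected, as a ratio of the number found to the number given by the genes' shares within classes, by library. Circles are pairs of members (1.37 to 1.82), triangles a member with a comparison gene and squares pairs of comparison genes (1.05 to 1.10); the dashed line is 1.

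By gene, summed over its 9 partners, the ratio was highest for ADM at 2.02, CA9 at 1.91 and NDRG1 at 1.85, and lowest for EGLN3 at 1.36. The CA9 value rests on only 152 nuclei summed over pairs. Its pair with ADM rests on 4 nuclei, with library ratios from 0 to 10.9. ADM and NDRG1 were found together in 32 nuclei against 12.2 given by their shares, a ratio of 2.63, above 1 in all 6 libraries. VEGFA and NDRG1 were found together in 319 nuclei against 153 (ratio 2.09) and ADM and PGK1 in 107 against 51.0 (ratio 2.10), also above 1 in all 6. EGLN3 and BNIP3 were among the weakest, with 169 nuclei against 144 (ratio 1.17, above 1 in 5 of 6 libraries). The 2 glycolytic enzymes PGK1 and LDHA shared 717 nuclei against 497, a ratio of 1.44, less than the ratio of either vessel signal with NDRG1.

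Of the 40173 thinned nuclei 4461 (11.1%) had a UMI of 2 or more members, 10314 of exactly 1 and 25398 of none. The share with 2 or more was 5.31% and 20.2% in DATG, 7.12% and 10.2% in KO and 7.89% and 18.4% in WT, so the DATG values lay on both sides of the KO and WT values. By class, as a mean over libraries with at least 50 nuclei, it was 32.2% ± 10.4 in the HSPA1A/HSPH1 cluster (SD, n = 6), 21.0% ± 4.56 in the CDKN2B/COMP cluster (SD, n = 5), 20.8% ± 10.3 in gut epithelium-like nuclei (SD, n = 4) and 19.3% ± 4.44 in the ESRG/HPAT5 cluster (SD, n = 4). It was 3.29% ± 1.42 in the SLC6A5/LAMP5 cluster (SD, n = 4). The HSPA1A/HSPH1 cluster had the highest share of all classes in 4 of 6 libraries. The order of the others differed between libraries. In DATG replicate 2 the PAX3/PAX7 cluster with 31.8%, choroid plexus-like nuclei with 28.4% and neuron-like nuclei with 26.3% lay above gut epithelium-like nuclei with 21.99% and the CDKN2B/COMP cluster with 18.1%. Within a class the libraries differed widely, as in melanocyte-like nuclei, which had 4.90% and 10.0% in KO and 11.4% and 42.3% in WT, or in neuron-like nuclei, which had 3.95% and 26.3% in DATG, 4.72% and 6.62% in KO and 2.20% and 6.90% in WT.

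**Figure D4:**
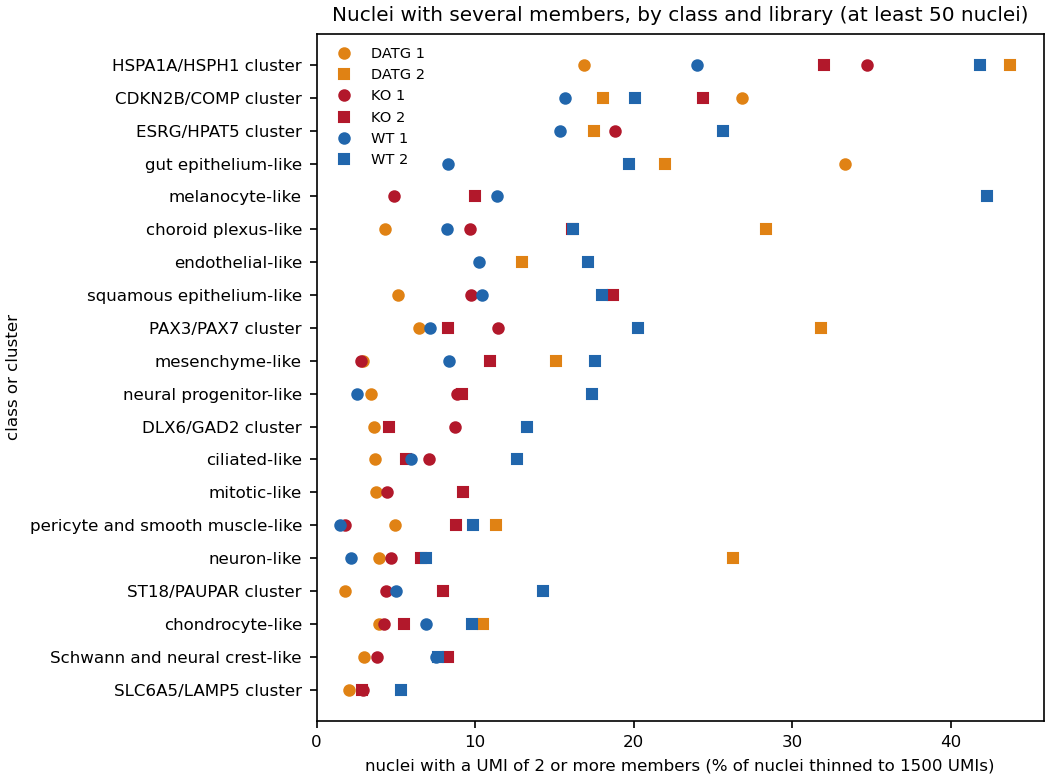
Share of nuclei, thinned to 1500 UMIs, with a UMI of 2 or more of the 10 genes, by class and library with at least 50 nuclei. The HSPA1A/HSPH1 cluster reaches 16.9% to 43.8%, and DATG replicate 2 and WT replicate 2 are on the right of most rows.

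Nuclei with 2 or more members were then set beside nuclei with none, in the same library and with the same class weights, for all other genes, as log2 ratios of CPM + 1. The genes named first were those of at least 20 CPM in nuclei with 2 or more members, a filter that favours genes high there, with a ratio above 0 in all 6 libraries. By the median ratio over libraries, the 12 most like the members were HK2 (2.46), DDIT4 (2.33), HIF1A-AS3 (2.21), BHLHE40 (2.10), PFKFB4 (2.02), FAM162A (1.95), PDK1 (1.78), INSIG2 (1.77), STC2 (1.75), SLC2A3 (1.65), ENO1 (1.54) and PFKP (1.49). HK2 is the hexokinase that starts glycolysis, and it had 100 CPM in nuclei with 2 or more members against 19.8 CPM in nuclei with none. PFKFB4 and PFKP act at the phosphofructokinase step, ENO1 is enolase, SLC2A3 the glucose transporter GLUT3, and PDK1 the kinase that holds pyruvate back from the mitochondrion. DDIT4, a brake on mTOR signalling, had 77.1 CPM against 17.5 CPM. BHLHE40 is a transcriptional repressor, STC2 a secreted glycoprotein and INSIG2 a regulator of sterol synthesis. HIF1A-AS3 is named as an antisense RNA of HIF1A, and since the strand used in counting is not stated, its reads and those of HIF1A cannot be told apart. With the level read over all nuclei instead, BHLHE40 (11.9 CPM) and STC2 (7.35 CPM) fell under 20 CPM and the other 10 were the first 10. Without the HSPA1A/HSPH1 cluster 11 of the 12 stayed among the top 12.

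Of the 8894 genes with at least 20 CPM over all nuclei, which does not read the split, 774 (8.7%) were higher in all 6 libraries and 940 (10.6%) were lower in all 6. Of the glycolysis list 17 of all 21 genes were higher in all 6, and 17 of the 18 at this level, which had a median log2 ratio of 1.10. Of the HIF targets 21 of all 25 were higher in all 6, and 18 of the 20 at this level, which had a median of 1.10. Over all 8894 genes the median log2 ratio was -0.03, and 34 genes (0.382%) had a median above 1, among them 9 of the glycolysis genes and 11 of the HIF targets. Some of these genes are named here after their values were seen. P4HA1 and PLOD2, which modify collagen, had 529 against 222 CPM and 514 against 229 CPM, while GAPDH had a smaller log2 ratio of 0.66 and LDHB, the other lactate dehydrogenase subunit, 0.16.

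**Figure D5:**
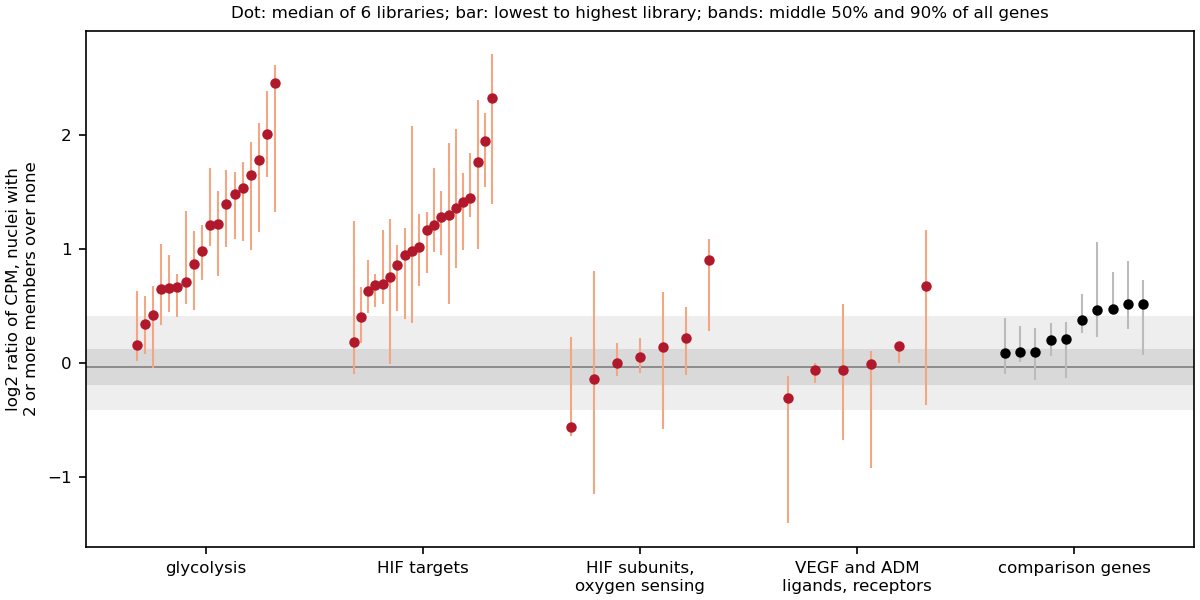
Log2 ratio of CPM + 1 in nuclei with 2 or more of the 10 genes over nuclei with none, for each gene of at least 20 CPM over all nuclei in 4 pathway lists (orange bars, red dots) and of the comparison list (grey bars, black dots). Dots are medians and bars the range of 6 libraries; grey bands hold the middle 50% and 90% of 8894 genes, and most glycolysis genes and HIF targets lie above both.

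Of the 7 HIF subunits and sensing genes at this level, HIF1A was the only one higher in all 6 libraries, with 206 CPM against 113 CPM and a median log2 ratio of 0.91. HIF1A-AS3, whose reads cannot be told apart from those of HIF1A, had 262 CPM against 55.4 CPM in the same split. EGLN1, an oxygen-sensing prolyl hydroxylase that HIF also raises and that was counted among the HIF targets, was higher in all 6 as well, with 132 CPM against 65.6 CPM and a median of 1.02. EPAS1 had -0.13, ARNT 0.22 and HIF3A 0.05, and ARNT2 had -0.55 with 5 of 6 libraries below 0. Of 6 genes of the VEGF and adrenomedullin systems none was higher in all 6, and VEGFC (-0.30) and NRP1 (-0.06) were lower in all 6. Of the 10 comparison genes 7 were higher in all 6, by a median of 0.30, and 5 were without the HSPA1A/HSPH1 cluster, so a small rise was not limited to the pathway. Depth before thinning was close, with medians of 3192 against 2919 UMIs and 3269 against 3590 UMIs in DATG, 3074 against 2890 UMIs and 3859 against 4126 UMIs in KO, and 4635 against 4665 UMIs and 2841 against 3146 UMIs in WT. The mitochondrial share of UMIs in nuclei with 2 or more members against none was 0.487% against 0.489% and 0.438% against 0.490% in DATG, 0.231% against 0.163% and 0.128% against 0.107% in KO, and 0.197% against 0.1995% and 0.0586% against 0.0714% in WT. It was thus higher in both KO libraries, by 1.42-fold in KO replicate 1, and not in the other 4.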

How the data were processed

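Nuclei were isolated from frozen teratomas on a Singulator and made into libraries with the 10x Genomics 3′ chemistry, per the labels' protocols. For each library the authors deposited raw UMI counts per gene and barcode on a joint human and mouse reference, not normalized. Cell Ranger 8.0.1 is named in the submitters' processing notes and 8.0.0 in the matrix headers. For introns and strand the counting settings are not stated.

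Barcodes with at least 500 UMIs and 300 genes were kept, and called human or mouse with 90% of UMIs on that species. Doublets were removed against simulated doublets, at an assumed 0.8% per 1000 nuclei. Human nuclei were clustered with scanpy 1.11.5 (2000 variable genes without the members, glycolysis genes, HIF targets and mitochondrial genes, 30 components, 20 neighbours, Leiden resolution 1). A cluster was named from marker lists when at least 3 markers, making up a large part of the list, stood 2-fold above the other clusters at 20 CPM or more. The HSPA1A/HSPH1 cluster passed for erythroid markers but was left unnamed, because those markers summed to far more in the DATG libraries than in the others. It is called by heat shock genes further down its list of leading genes. Gene coordinates are from GENCODE 29 on GRCh38, matched by gene identifier.

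Since nuclei are not replicates, counts were added up within each library, for human nuclei, a class or mouse nuclei. The sums were tested in R 4.3.3 with edgeR 4.0.16 (quasi-likelihood test, robust), TMM scaling, the default filter on low counts, all 6 libraries in the fit, and a Benjamini-Hochberg adjusted p under 0.05. DESeq2 1.42.0 was an alternative. The test was tried on simulated data with known changes. Exact intervals are Clopper-Pearson at 95%. Classes tested were the 4 named ones with the largest minimum number of nuclei. The 10 members are all named, with the 3 genes of smallest unadjusted p of each pathway list and the 12 genes most like the members. Members, lists and tests were chosen with earlier results of these data known. The cluster or gut class left out, equal class weights, library weights for free RNA, the level filter over all nuclei, and left-out libraries within classes and lists were chosen after seeing the data.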

Additional observations from a re-analysis of the deposited data

How the results depend on the processing

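Over the alternatives run, 318 values were counted as unchanged and 13 were not. For the fold change of a gene, this meant the same sign and the same side of the threshold. For counts it meant a set fold range, and for levels, joint detection and medians over members, a difference within the spread between libraries. A median could thus turn sign and count as unchanged, as for KO over WT, with -0.29 in all libraries and 0.23 without WT replicate 2. With equal weights for the 14 classes of at least 20 nuclei in every library, the NDRG1 log2 fold change of KO over WT was 0.05, against -1.28 as reported; these classes leave out gut epithelium-like nuclei, where NDRG1 was highest. Over the same 14 classes at their own sizes it was -0.81, and over all classes but the gut -0.86. Leaving out 1 library at a time, the number of members called was 0 to 2 for DATG over KO in all human nuclei and 0 to 1 within classes. For the pathway lists it was 0 to 1 for KO over WT, 0 to 3 for DATG over WT and 0 to 11 for DATG over KO. The log2 fold change then ranged from -1.37 to 0.08 for ANKRD37 and from -1.16 to 1.14 for SLC2A1 in DATG over WT, and from -0.51 to 1.93 for VEGFA and from 0.54 to 2.01 for EGLN3 in DATG over KO. The median over the 10 genes ranged from -0.86 to 0.65 for DATG over WT, from -0.77 to 0.23 for KO over WT and from -0.49 to 0.73 for DATG over KO. The calls came without DATG replicate 1, when edgeR called 6613 of 27650 genes for DATG over KO, against 0 with all libraries. The cause was not tested. Scaling to total UMIs moved the median log2 fold change of all genes to -0.13 for DATG over WT and -0.10 for DATG over KO. Levels by class kept the same leading class for 9 of 10 genes with nuclei of at least 1000 UMIs, and the ratio of joint detection was 1.59 to 1.74 over its alternatives.

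With the replicate number as a block, 0 members were called in each comparison, and the median log2 fold change over the members was -0.05 for DATG over WT, -0.18 for KO over WT and 0.28 for DATG over KO. The numbers were not taken to pair the samples: same-numbered libraries deviated together at r = 0.43 between DATG and KO, -0.15 between DATG and WT and 0.09 between KO and WT.

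With 2 libraries a group and a common biological coefficient of variation of 38.5%, small differences were not detectable here. CA9, ADM and ANKRD37 rest on few UMIs, and shares of nuclei cover counting error only.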
